A study of Mus musculus with 40 samples.

Results

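Mesenchymal progenitor markers were followed at the RNA level in 20 immortalised mouse brown preadipocyte lines. They were the 8 genes Thy1, Cd34, Eng, Pdgfra, Pdgfrb, Ly6a, Cd44 and Plac8, taken by symbol from the 29787 symbols kept. All 8 were found in all 40 libraries. Each line came from brown adipose tissue (strain C57BL/6) and gave 1 library of undifferentiated cells and 1 library after 8 days of differentiation. The inducing medium held insulin, T3, indomethacin, dexamethasone and IBMX, and the medium of the following days only insulin and T3 of these agents. The undifferentiated and the day 8 groups thus hold the same lines, all immortalised and of the same strain, at passage 6-12. The letter in a line's name (A in 4 lines, B in 5, C in 5 and D in 6) is not explained in the labels. No line was grown in more than 1 culture per stage, so p-values measure the spread between lines, except where each line is in the fit. There they measure the variation left after stage and line.

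Adipocytes arise from mesenchymal progenitors in the stroma of fat. In mouse fat such progenitors are usually isolated by the PDGF receptor alpha, stem cell antigen 1 and CD34 on their surface. The surface proteins CD90, CD105 and CD44 belong to the usual panel for cultured mesenchymal stromal cells, a panel that does not by itself tell progenitors from fibroblasts. Thy1 encodes CD90, an adhesion protein held by a lipid anchor, and Cd34 encodes a sialomucin of progenitor and endothelial cells. Eng encodes endoglin (CD105), a co-receptor for ligands of the TGF-beta family that endothelium also carries. Pdgfra and Pdgfrb encode the tyrosine kinase receptors of platelet-derived growth factors, and Cd44 the main receptor of hyaluronan. Ly6a encodes stem cell antigen 1 (Sca-1), which interferons induce in mouse. Plac8 differs from the others: it encodes a small cysteine-rich protein that is no classical surface antigen and that acts upstream of Cebpb in mouse brown fat differentiation.

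Total counts on genes ran from 19535806 to 28074918 in undifferentiated libraries and from 27181830 to 43113838 in day 8 libraries. Levels are given as CPM, counts scaled to the normalised library size, and a count of 0 allows up to 0.107 to 0.154 CPM before differentiation and up to 0.0696 to 0.110 CPM at day 8, for counting error only. Of the 14081 genes with enough counts to test, 82.1% differed between the stages at an adjusted p under 0.05 (edgeR quasi-likelihood test, Benjamini-Hochberg adjustment over all tested genes), 43.1% upward and 39% downward. Low-quality and unaligned reads were tallied at 0 in every day 8 file and above 0 in the undifferentiated files, so counting may have differed between the stages, an effect that cannot be told apart from stage. Undifferentiated cells held almost no Adipoq, the adipocyte hormone adiponectin, at 0 to 0.0468 CPM. Of single genes that define other cell types, Cdh5 reached at most 0.386 CPM, Ptprc 0.127, Sox10 0.123 and Myod1 0.0443 in any library, Rgs5 1.85 and Pecam1 3.19. In the whole endothelial list, 9 of 12 genes before and 8 of 12 after differentiation stayed under 1 CPM in every library, and in the immune list 8 and 6 of 11. Genes of the mural list were expressed: 3 of 10 before and 4 of 10 after differentiation stayed under 1 CPM in every library, and the list summed to 112 to 484 and 184 to 368 CPM, with Mcam the most abundant at a mean of 197 and 120 CPM. In the skeletal muscle list 7 of 10 genes stayed under 1 CPM at each stage, and the list summed to 32.1 to 70.9 and 33.8 to 135 CPM, led by Pax3 (mean 37.4 CPM) before and Des (mean 28.9 CPM) after differentiation. The Schwann cell list, with 5 and 4 of 8 genes under 1 CPM, summed to 1.79 to 10.6 and 6.36 to 23.4 CPM. The part of these lists in the results was not tested.

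All 8 markers passed the filter on low counts, and the stage moved 6 of them: Pdgfra, Ly6a and Plac8 rose, and Thy1, Pdgfrb and Cd44 fell. Cd34 and Eng did not pass the test. With 82.1% of all tested genes called, 6 of 8 is a share near the background. Within the set, the ranking by level per kilobase of merged exon changed. By medians over the 20 lines, undifferentiated cells held most Cd44 (85.7 CPM per kilobase), then Pdgfrb (50.2), Ly6a (25.6), Thy1 (16.6), Pdgfra (3.55), Plac8 (2.43), Cd34 (2.09) and Eng (0.489). At day 8 Ly6a led (212 CPM per kilobase), followed by Plac8 (33.8), Pdgfrb (21.6), Pdgfra (16.8), Cd44 (7.31), Cd34 (4.96), Thy1 (1.68) and Eng (0.389). The medians of neighbours in these orders lie within the range over lines of both genes, so the order is that of the medians and not of every line.

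**Figure D1:**
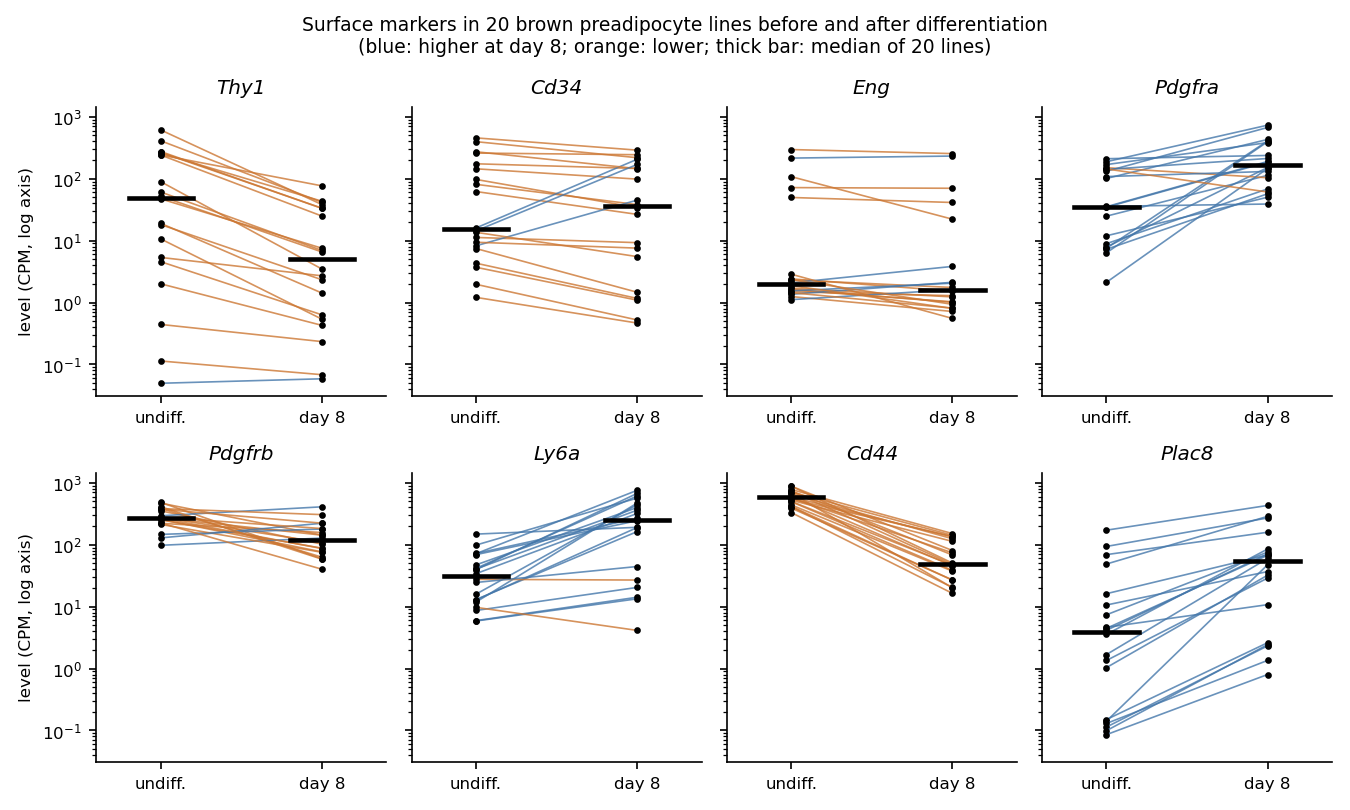
Level of each marker (CPM, log axis) in the undifferentiated and the day 8 library of 20 lines, with the libraries of a line joined, blue where higher at day 8 and orange where lower; thick bars are medians. Cd44 fell in 20 of 20 lines and Plac8 rose in 20 of 20, while Eng stayed high in the same 5 lines.

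Cd44 was the most even marker of the undifferentiated lines and the one that fell most uniformly. It stood at 331 (B6), 580 (median) and 884 CPM (B1) before differentiation, and at 16.4 (B6), 49.5 and 152 CPM (C3) at day 8. The ranges of the stages did not overlap, and the log2 differences of single lines ran from -5.07 (D6) to -2.01 (C6). The log2 fold change was -3.07 (SE 0.25, adjusted p = 2.64e-14, edgeR).

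Thy1 fell in 19 of 20 lines, but from starting levels that spanned the detectable range. Undifferentiated levels were 0.0497 (A5, a single count), 49.7 (median) and 613 CPM (B3), and day 8 levels 0.0587 (A5), 5.03 and 76.8 CPM (D5). A2, A5 and C2 held under 1 CPM at both stages, at 3, 1 and 10 counts before and 2, 2 and 8 counts at day 8. At such counts the direction in these lines is uncertain. Of the 20 undifferentiated lines, 14 held at least 10 CPM against 7 at day 8. The log2 fold change was -3.00 (SE 0.83, adjusted p = 0.00111, edgeR).

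Pdgfrb, the other marker that fell, was present in every library. It ranged over 98.0 (C3), 275 (median) and 483 CPM (B6) before and 40.3 (D4), 118 and 410 CPM (C6) after differentiation. It fell in 16 of 20 lines and was higher at day 8 in C2, C3, C5 and C6, so the groups overlapped widely. The log2 fold change was -1.01 (SE 0.23, adjusted p = 0.000141, edgeR).

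Pdgfra went the other way. Undifferentiated lines held 2.13 (C2), 35.6 (median) and 211 CPM (B1), and day 8 lines 39.1 (D4), 169 and 734 CPM (D5). The rise was seen in 18 of 20 lines, all but B3 and D6, and was steepest in C2, where it reached 6.07 on the log2 scale. The 6 lines at the bottom before differentiation (C2, C3, B5, C5, A6 and A5, 2.13 to 8.95 CPM) held 57.2 to 408 CPM at day 8. The log2 fold change over all lines was 1.65 (SE 0.48, adjusted p = 0.00197, edgeR). Parts of Pdgfra exons overlap the genes Gm42802 and Gm42803 on the other strand, by 456 and 166 bases in GENCODE (148 bases of Cd34 and 61 of Eng overlap Gm16897 and Fpgs likewise), and whether strand was used in counting is not known.

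Ly6a rose in 18 of 20 lines, all but B6 and D4. Its levels were 5.87 (A5), 30.9 (median) and 149 CPM (B3) before and 4.14 (B6), 256 and 757 CPM (A3) after differentiation. At day 8 a gap separated 14 lines at 163 CPM or more from 6 lines (D6, D4, B5, A2, A5 and B6) at 44.5 CPM or less. The log2 fold change was 2.87 (SE 0.51, adjusted p = 2.84e-06, edgeR). Ly6a values are uncertain, because 31.9% of the 31-base words of its exons also occur in other genes, and 21.9% in Ly6c1.

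Plac8 rose in 20 of 20 lines, from 0.0857 (D4, 2 counts), 3.86 (median) and 172 CPM (C3) to 0.802 (D4), 53.7 and 431 CPM (C3). Before differentiation 14 lines held 1.04 CPM or more, and 6 lines (B5, B4, B6, A2, A5 and D4) 0.150 CPM or less. Line B4 moved from 4 to 1360 counts and joined the higher lines at 47.5 CPM, whereas the other 5 stayed between 0.802 and 2.61 CPM. The log2 fold change was 1.99 (SE 0.80, adjusted p = 0.0217, edgeR), and 3.24 (adjusted p = 5.49e-08) with each line as a replicate block and 3.45 by limma-voom.

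Cd34 differed far more between lines than between stages. Undifferentiated lines held 1.21 (B6), 15.2 (median) and 457 CPM (C3), and day 8 lines 0.467 (B6), 36.2 and 290 CPM (C3). The level was lower at day 8 in 17 lines and higher in C6, D2 and D5, in C6 from 16.0 to 206 CPM. The log2 difference was -0.26 (SE 0.73, adjusted p = 0.749, edgeR). With each line as a replicate block it was -0.50 (SE 0.36, adjusted p = 0.197), again without passing the test.

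Eng had the widest gap between neighbouring lines of the 8 markers, 4.09 log2 units in undifferentiated cells and 2.51 at day 8. In undifferentiated cells D5, C6, B4, D2 and D3 held 296, 216, 108, 72.0 and 49.8 CPM, and the other 15 lines held 1.12 to 2.87 CPM. The same 5 lines were high at day 8, at 22.2 CPM or more against 3.84 CPM or less in the others. The level was lower at day 8 in 15 of 20 lines, with a log2 difference of -0.24 (SE 0.92, adjusted p = 0.812, edgeR). With each line as a replicate block the difference was -0.45 and passed the test (adjusted p = 0.0280). In the 5 Eng-high lines the endothelial gene Pecam1 was at 0.0873 to 0.177 CPM before and 0.209 to 0.639 CPM after differentiation. The summed endothelial list was highest in C6, at 19.1 and 43.9 CPM, and its part in the Eng levels was not tested. Cdh5, the endothelial cadherin, stood at 0.0443 CPM before and 0.373 CPM after differentiation in D5 and at 0.117 and 0.186 CPM in C6, the highest day 8 values of all lines. The split is shown beside the sequence before the annotated start of Eng (RefSeq, GRCm38.p6, plus strand, chr2:32646345-32646594), in which none of the motifs named further on for Cd34 and Plac8 was found.
Eng: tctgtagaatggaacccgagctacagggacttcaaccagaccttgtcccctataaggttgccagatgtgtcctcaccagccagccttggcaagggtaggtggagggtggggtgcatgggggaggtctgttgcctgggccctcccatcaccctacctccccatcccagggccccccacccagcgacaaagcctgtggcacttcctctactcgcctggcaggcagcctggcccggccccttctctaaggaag

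The wider families of these genes moved in both directions, as did all tested genes, of which 43.1% rose and 39% fell. Among 29 tested genes for other progenitor surface proteins, 10 rose and 13 fell between stages, with a median log2 difference of -0.19 against 0.04 over all tested genes. The low-affinity neurotrophin receptor Ngfr rose from 0.0837 ± 0.0959 to 36.1 ± 59.1 CPM (SD, n = 20), and the fibroblast activation protein Fap and the ecto-nucleotidase Nt5e (CD73) also rose in 20 of 20 lines. Cd24a, Tnfrsf12a and the fibronectin receptor subunit Itga5 fell, Itga5 from 746 ± 193 to 130 ± 69.5 CPM. In the PDGF system, 7 of 16 tested genes rose and 5 fell. The ligand genes Pdgfc and Pdgfa fell in 20 of 20 lines (log2 fold changes -2.34 and -1.83), while the kinase adaptor Pik3r1 rose from 72.4 ± 12.6 to 356 ± 110 CPM (SD, n = 20).

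In the endoglin, TGF-beta and BMP receptor system, 14 of 24 tested genes fell and 4 rose. The inhibitory Smad7 fell from 57.6 ± 12.2 to 12.6 ± 3.19 CPM (SD, n = 20). Receptor genes Tgfbr2 and Tgfbr3 rose by 1.23 and 1.95. Around Cd44, 9 of 13 tested genes of the hyaluronan system fell, among them the hyaluronan synthase Has2 and the membrane linker moesin (Msn), which fell from 1471 ± 230 to 310 ± 58.6 CPM. The hyaluronidase Hyal1 and the hyaluronan-binding Tnfaip6 rose. Of 8 partners of Thy1, 4 fell, among them the integrin subunit Itgav and the kinase Fyn, and Cav1 rose. In the Ly6 family 3 of 6 tested genes rose, among them Ly6c1 and Ly6e, and 2 fell, among them the urokinase receptor Plaur. Cebpb, the gene Plac8 acts on in mouse, rose from 8.15 ± 3.20 to 37.8 ± 14.5 CPM in 20 of 20 lines. All adjusted p-values behind these calls were under the threshold in the edgeR fit over all genes. That fit called 43.1% of all tested genes upward and 39% downward, and no list was tested against these shares. Between the same stages 9 of 10 proliferation genes fell and 18 of 18 interferon-stimulated genes rose, the latter from a summed 98.3 to 583 CPM to a summed 346 to 6545 CPM. Their part in the marker levels was not tested.

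Most markers varied between lines far more than a typical gene. The SD of log2 CPM over the undifferentiated lines was 3.76 for Thy1, 3.31 for Plac8, 2.75 for Eng, 2.66 for Cd34, 2.08 for Pdgfra and 1.37 for Ly6a, against a median of 0.28 over all tested genes. Cd44 (0.40) and Pdgfrb (0.60) were closer to that median. At day 8 the SDs were 3.17 for Cd34, 2.97 for Thy1, 2.80 for Eng, 2.69 for Plac8, 2.26 for Ly6a, 1.26 for Pdgfra, 1.04 for Cd44 and 0.87 for Pdgfrb, against a median of 0.38. Cd34 and Thy1 each exceeded 99.9% of the tested genes at day 8.

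Lines kept their own level of some markers through differentiation. The fit that tests all line coefficients beside the stage called 28.7% of all tested genes, and 5 of the 8 markers. These were Eng (adjusted p = 9.40e-11), Thy1 (7.89e-09), Plac8 (1.38e-05), Cd34 (5.77e-05) and Ly6a (0.0304), by edgeR. Cd44 (0.0725), Pdgfra (0.182) and Pdgfrb (0.656) did not pass. DESeq2 also called Pdgfra (0.00686) and Cd44 (0.00150), and Cd44 passed without lines C6 and D5 (0.0401).

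Across the 20 lines the undifferentiated and the day 8 level of Thy1 correlated at r = 0.955 and rho = 0.932, both with a permutation p of 1e-05, the smallest that 100000 resamples can give. For Plac8 r was 0.869 and rho 0.860, and for Cd34 0.847 and 0.871, each again with a permutation p of 1e-05. Without the lines farthest from the median on the x axis, r stayed at 0.940 for Thy1, 0.839 for Plac8 and 0.820 for Cd34. Ly6a (r = 0.651, permutation p = 0.00200; rho = 0.620) and Cd44 (r = 0.577, permutation p = 0.00859; rho = 0.592) had lower values. For Pdgfra (r = 0.300, permutation p = 0.199) and Pdgfrb (r = -0.145, permutation p = 0.541) no relation was detectable over 20 lines. No pooled value is given for Eng because its lines form separate sets. Within the 15 Eng-low lines r was -0.0867 (permutation p = 0.761). In all, 48 such relations were computed, with no adjustment over them.

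**Figure D2:**
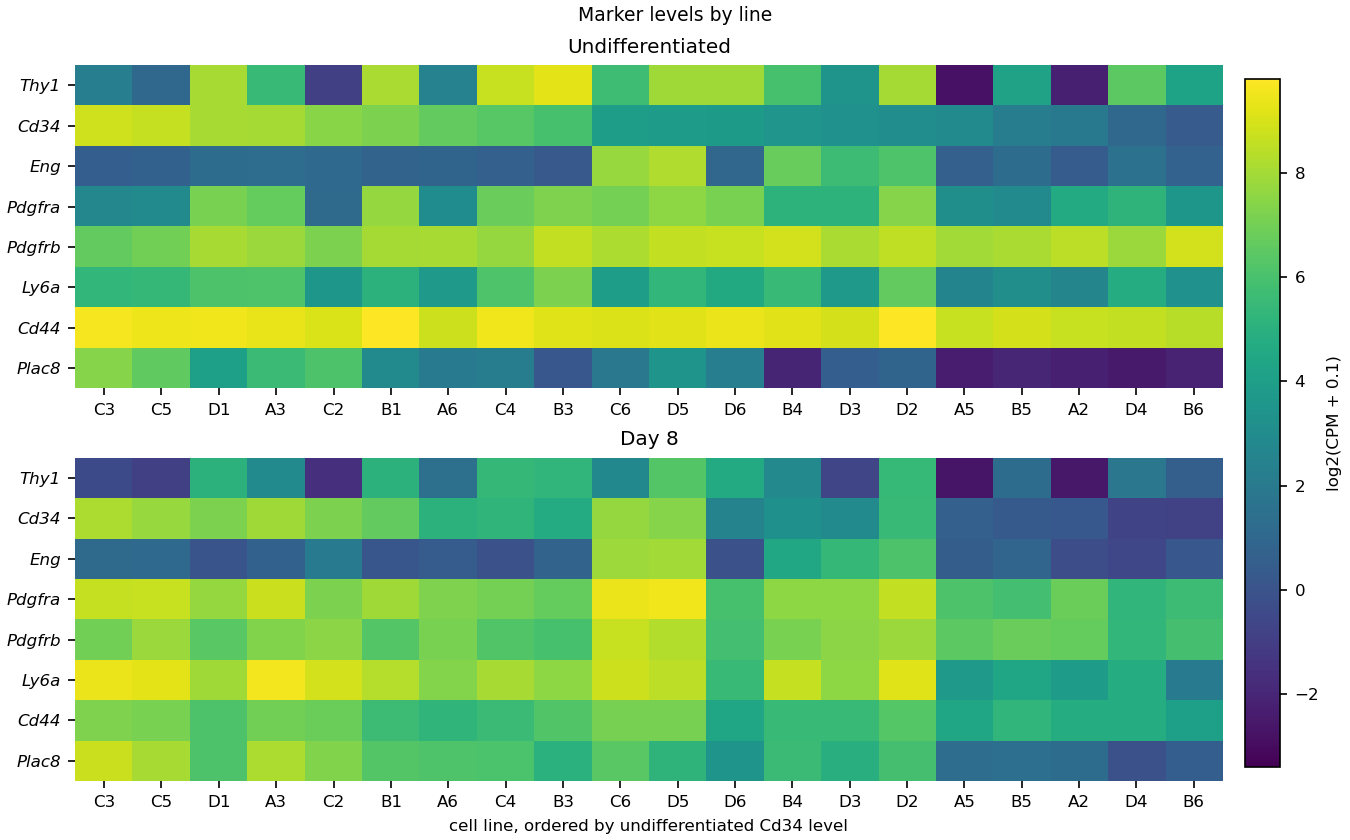
Level of each marker, as log2(CPM + 0.1), in every line before differentiation (top) and at day 8 (bottom), with lines ordered by their undifferentiated Cd34 level; colours compare lines within a gene, not genes. Plac8 broadly followed the Cd34 order at both stages, and the 5 lines at the right (A5, B5, A2, D4 and B6) were low in Cd34, Plac8 and Ly6a at day 8.

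The markers fell into groupings among themselves that differed by stage. Eng was left out of these pairs, and correlations are descriptions over 20 lines whose values share library and scaling. In undifferentiated lines the 21 pairs of the other 7 markers had a median r of 0.48, 15 of them positive. Thy1 went with Pdgfra (r = 0.804) and Ly6a (0.741). Cd34 went with Plac8 (0.882) and Cd44 (0.649), and both Cd34 and Plac8 ran against Pdgfrb (-0.660 and -0.672). Thy1 and Cd34 had an r of 0.0512, and C2, C3 and C5 combined 174 to 457 CPM of Cd34 with 0.443 to 4.57 CPM of Thy1, while D1 held 273 and 267 CPM. At day 8 the median r was 0.79 and 20 of 21 pairs were positive. Cd34 with Pdgfrb turned from -0.660 to 0.598. Over all 20 lines Ly6a with Plac8 went from 0.397 to 0.938. Among the 14 undifferentiated lines with at least 1.04 CPM of Plac8 its r was -0.0892, and among the other 6 lines 0.0536. Among the 15 day 8 lines with at least 10.8 CPM of Plac8 it was 0.825. Thy1 stood apart at day 8, with r from -0.0490 to 0.363 to the other 6 markers.

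**Figure D3:**
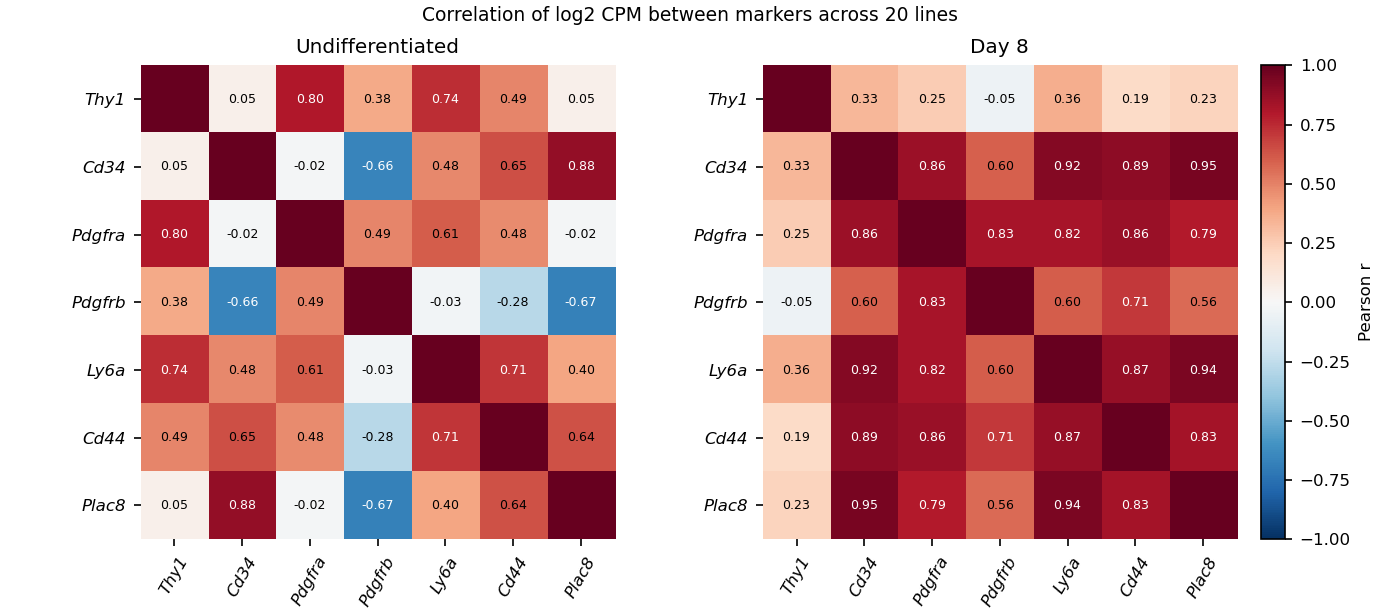
Pearson r of log2 CPM between 7 markers (Eng left out) across 20 undifferentiated (left) and 20 day 8 libraries (right). Pdgfrb was negative with Cd34, Ly6a, Cd44 and Plac8 before differentiation and positive with each of them at day 8, when the row of Thy1 was the palest.

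Plac8 was the gene most like Cd34 among 9763 genes searched, by the correlation of stage-centred log2 CPM over the 40 libraries (r = 0.897), and Cd34 the gene most like Plac8. Since Plac8 has a gap between lines, the relation was also taken on either side of it. In the 14 undifferentiated lines above the gap r was 0.768 and rho 0.802, and in the 6 lines below it r was 0.243, at Plac8 levels of 0.0857 to 0.150 CPM close to the limit of detection. In the 15 day 8 lines above the gap r was 0.797 and rho 0.854. C3 held the most of both genes at both stages, and D4 and B6 took the lowest places for Cd34. The genes next most like Cd34 were Gem (0.865) and Tcf4 (0.864). Other nearest genes were Zfp605 for Thy1 (0.810), Glb1l for Eng (0.868, with both sets of lines in it), St3gal1 for Pdgfra (0.915), Tmem119 for Pdgfrb (0.920), Ly6c1 for Ly6a (0.917) and Layn for Cd44 (0.921). Layn encodes another hyaluronan receptor, and Ly6c1 shares sequence with Ly6a as given above.

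Because Cd34 and Plac8 moved together across lines, the 250 bases before their annotated starts are shown. They come from RefSeq with build GRCm38.p6, whereas the reads were aligned to mm9, and sequences were found for 5 of the 8 markers, with both starts of Plac8. Cd34 lies on chromosome 1, Thy1 on 9, Eng and Cd44 on 2, Pdgfra and Plac8 on 5, Ly6a on 15 and Pdgfrb on 18. The windows are chr1:194938571-194938820 (plus strand) for Cd34, and chr5:100563097-100563346 and chr5:100572206-100572455 (minus strand) for the starts of Plac8. Each reads 5′ to 3′ toward the start, and capitals mark a motif match.
Cd34: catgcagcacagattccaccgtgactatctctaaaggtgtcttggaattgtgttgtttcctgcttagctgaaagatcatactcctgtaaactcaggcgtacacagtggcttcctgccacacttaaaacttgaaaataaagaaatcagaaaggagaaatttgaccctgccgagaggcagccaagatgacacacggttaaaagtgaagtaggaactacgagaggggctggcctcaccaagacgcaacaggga
Plac8, first window: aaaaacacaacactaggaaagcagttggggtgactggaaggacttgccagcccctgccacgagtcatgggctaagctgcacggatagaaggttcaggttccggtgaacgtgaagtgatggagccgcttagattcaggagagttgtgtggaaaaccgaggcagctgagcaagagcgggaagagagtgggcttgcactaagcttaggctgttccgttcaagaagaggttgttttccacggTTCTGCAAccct
Plac8, second window: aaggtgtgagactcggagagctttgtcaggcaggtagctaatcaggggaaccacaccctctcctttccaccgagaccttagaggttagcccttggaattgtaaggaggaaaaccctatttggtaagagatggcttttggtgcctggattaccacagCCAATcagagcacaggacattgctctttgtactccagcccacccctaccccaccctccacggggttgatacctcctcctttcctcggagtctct

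Both strands were searched for a GC box (GGGCGG, in 32.7% of 32851 mouse windows of the same length), a CCAAT box (CCAAT, 33.8%), a TATA box (TATAAA, 12.4%), an AP-1 site (TGANTCA, 6.75%), a C/EBP site (TTGCNNAA, 9.56%), an ETS site (CCGGAAG, 6.91%) and an interferon response element (2.98%). The first Plac8 window holds a C/EBP match, TTCTGCAA, whose first base lies 12 bases before the start, and the second a CCAAT match 94 bases before it. No listed motif was found in the Cd34 window, and the windows of Cd34 and Plac8 share none. A match is a description of these letters only.

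The comparison of preadipocyte levels with later differentiation asked whether a marker set lines apart that later made more adipocyte RNA. Day 8 Adipoq stood at 14.9 (C6) and 217 CPM (D5) in the lowest lines, and at 532 to 1265 CPM in the other 18 lines, with a median of 835 CPM over all lines. Day 8 Ucp1, the uncoupling protein of brown fat heat production, was low in most lines: it had 0 counts in C6 (up to 0.0821 CPM allowed), a median of 0.751 CPM, 4.12 CPM in D6, 26.9 in B3 and 51.2 in B6. In such bulk cultures, fewer adipocytes and less RNA per adipocyte cannot be told apart.

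No undifferentiated marker passed the test against day 8 Adipoq, in a fit that called 4.85% of all tested genes, 2.44% with a positive and 2.41% with a negative slope. By unadjusted p, 1 of 8 was under 0.05. That was Eng, with a slope of -0.99 log2 units per log2 unit of Adipoq (SE 0.37, adjusted p = 0.119, edgeR). Eng was called by limma-voom (adjusted p = 0.00646) and with the line letter in the fit (0.0111), and by DESeq2 no marker was called. C6 and D5, the lines with the least Adipoq, were the highest Eng lines, but B4, D2 and D3, also Eng-high, made 1005, 834 and 880 CPM of Adipoq. Without C6 and D5 the Eng slope turned to 3.54 (SE 2.53), and the smallest adjusted p of any marker was 0.9998. Within the 15 Eng-low lines r of undifferentiated Eng with Adipoq was 0.259 (permutation p = 0.348).

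The other 7 markers showed slopes against Adipoq between -0.19 (Pdgfra, SE 0.25) and 0.30 (Cd34, SE 0.58), with adjusted p from 0.708 upward (edgeR). Lines with little Thy1, such as A2 (0.114 CPM) and A5 (0.0497 CPM), reached 1098 and 1053 CPM of Adipoq, and lines with much of it, B1 (275 CPM) and B3 (613 CPM), reached 1265 and 534 CPM. For Thy1 and Adipoq r was -0.136 (permutation p = 0.593), and for Cd34 0.00394 (permutation p = 0.990). Plac8 had r = -0.160 (permutation p = 0.550) and rho = -0.40 (permutation p = 0.0823). Without C6 and D5, r turned to -0.378 for Cd34 and stood at -0.403 for Plac8. The slopes without these lines were -4.74 (SE 1.88) for Plac8, -2.15 (SE 1.32) for Cd34, -1.45 (SE 0.73) for Ly6a and -0.49 (SE 1.42) for Thy1, each turned from a positive value, and none was called. Those of Pdgfra (0.45, SE 1.02), Pdgfrb (0.25, SE 0.38) and Cd44 (-0.11, SE 0.27) also changed sign without a call. The slopes' SEs of 0.28 for Ly6a and 0.91 for Plac8 leave sizeable relations undetected, so a missed threshold does not show that none exists.

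**Figure D4:**
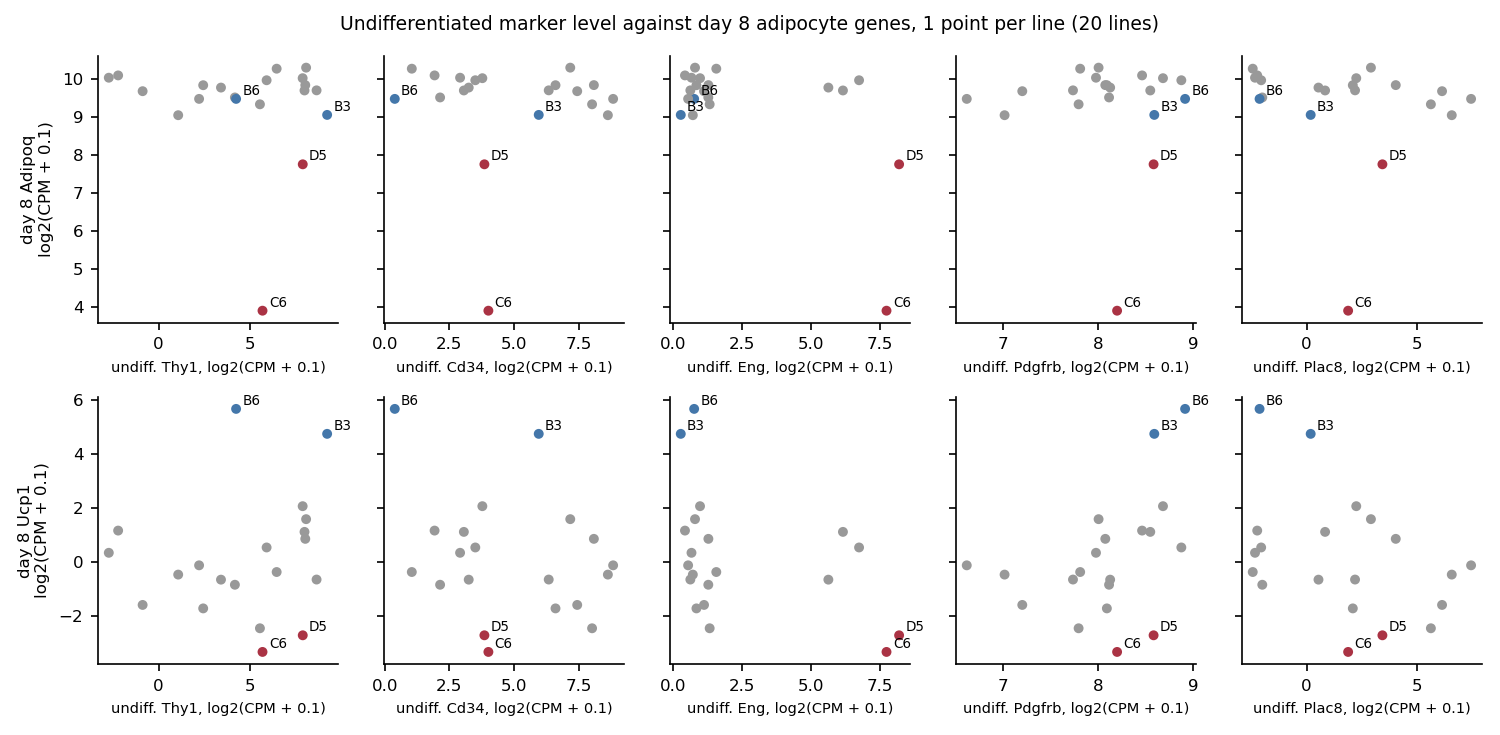
Undifferentiated level of 5 markers (x axis) against day 8 Adipoq (top) and Ucp1 (bottom) of the same line, all as log2(CPM + 0.1), 1 point per line; lines with the least Adipoq (C6, D5) in red and with the most Ucp1 (B3, B6) in blue. C6 and D5 sit far below the rest in Adipoq, and the Eng panels show 5 separate lines.

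Against day 8 Ucp1, again 0 of 8 undifferentiated markers passed, in a fit that called 4.72% of all tested genes (1.89% positive and 2.83% negative), and 1 of 8 had an unadjusted p under 0.05. Eng had a slope of -0.68 (SE 0.24, adjusted p = 0.1004, edgeR), Pdgfrb of 0.09 (SE 0.05, 0.231) and Plac8 of -0.74 (SE 0.43, 0.316). DESeq2 called Eng (0.0305) and Plac8 (0.0206), and limma-voom called none. Without C6 and D5 the Eng slope was -0.07 (SE 0.57, adjusted p = 0.955). The Pdgfrb slope was 0.17 without these lines (SE 0.05, adjusted p = 0.0563, edgeR) and 0.009 with the line letter in the fit (SE 0.05, adjusted p = 0.970). B6 and B3, with the most Ucp1, held 1.60 and 1.12 CPM of Eng and 0.130 and 1.04 CPM of Plac8. B6 also held the most undifferentiated Pdgfrb (483 CPM) and the least Cd34 (1.21 CPM) and Cd44 (331 CPM) of all lines, while B3 held the most Thy1 and Ly6a. For Pdgfrb and Ucp1 r was 0.407 (permutation p = 0.0725) and rho 0.406, and r was 0.530 without the lines farthest from the median, C3 and C5. Within the 15 Eng-low lines undifferentiated Eng and Ucp1 had r = -0.469 (permutation p = 0.0773).

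Of the tested genes around the markers, the Adipoq fit called 1 of 29 other progenitor surface genes, 3 of 16 of the PDGF system, 0 of 24 of the endoglin system, 1 of 13 of the hyaluronan system and 1 of 8 Thy1 partners. The Ucp1 fit called 3, 1, 0, 1 and 0 of them. With so few calls, and 4.85% and 4.72% of all tested genes called, nothing is read from these counts about the lists. Undifferentiated Itgb1 and Msn went up with later Adipoq, with slopes of 0.12 and 0.12 (adjusted p = 0.0255 and 0.0408, edgeR), and Pdgfc, Stat3 and Myc went down. Without C6 and D5 the Adipoq fit in edgeR called 0 genes, with 616 at an unadjusted p under 0.05. Msn also went up with later Ucp1 (slope 0.08, adjusted p = 0.0158), and N-cadherin (Cdh2), Procr and Nt5e went down. With the line letter in the fit the Ucp1 fit called 0 genes, with 1497 at an unadjusted p under 0.05, so none of these calls was kept.

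Within the day 8 libraries, Eng, Pdgfra and Pdgfrb were higher where Adipoq was lower. The slopes were -1.35 for Eng (SE 0.39, adjusted p = 0.0126), -0.50 for Pdgfra (SE 0.16, 0.0221) and -0.39 for Pdgfrb (SE 0.10, 0.00543), by edgeR. The fit called 33.3% of all tested genes with 17.4% positive and 15.9% negative, and 3 of 8 markers is near the share called in either direction, while all 3 were negative. C6 and D5 held the most Eng (233 and 255 CPM), Pdgfra (673 and 734 CPM) and Pdgfrb (410 and 307 CPM) at day 8. Without these lines no marker was called, the Eng slope turned to 0.73 (adjusted p = 0.911), and Pdgfra and Pdgfrb had adjusted p of 0.313 and 0.311. Their removal moved r with Adipoq from -0.491 to -0.572 for Cd44, -0.236 to -0.416 for Plac8, -0.385 to -0.387 for Cd34 and -0.276 to -0.307 for Ly6a. It weakened for Pdgfra (-0.542 to -0.338), Pdgfrb (-0.634 to -0.356) and Thy1 (-0.155 to 0.00538). With the line letter in the fit Pdgfra was lost (0.117). Within the 15 Eng-low lines Eng and Adipoq had r = -0.608 (permutation p = 0.0159), at Eng levels of 0.555 to 3.84 CPM. Cd44 had a slope of -0.37 (SE 0.15, adjusted p = 0.0643), and DESeq2 and limma-voom called it.

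Against day 8 Ucp1 the same 3 markers had called negative slopes. They were -0.73 for Eng (SE 0.23, adjusted p = 0.0212), -0.31 for Pdgfra (SE 0.09, 0.0177) and -0.26 for Pdgfrb (SE 0.06, 0.00553), by edgeR. This fit called 31.9% of all tested genes, 15.1% with a positive and 16.8% with a negative slope. For Pdgfrb and Ucp1 r was -0.672 (permutation p = 0.00114) and rho -0.654, and r was -0.715 without C6 and D4. No marker was called without C6 and D5, with the line letter in the fit or with Adipoq as a second covariate, and Pdgfra was not called without B6 (adjusted p = 0.0509).

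The day 8 order of the markers ran with an interferon-stimulated gene, Ifit3, which encodes an antiviral protein. The comparison was added after the data had been seen. Day 8 Ifit3 was 9.74 CPM in B6, 13.2 in D4 and 26.0 in D6, with a median of 260 CPM and a maximum of 708 CPM in A3. Its covariate fit called 41.1% of all tested genes, 22.2% with a positive and 18.8% with a negative slope, and 7 of 8 markers, all with positive slopes. Slopes were largest for Cd34 (1.34, SE 0.26, adjusted p = 0.000557, edgeR), Eng (1.31, SE 0.37, 0.00786), Plac8 (1.16, SE 0.19, 0.000163) and Ly6a (0.93, SE 0.14, 7.99e-05). Pdgfra (0.59, SE 0.09, 8.96e-05), Cd44 (0.46, SE 0.07, 0.000118) and Pdgfrb (0.39, SE 0.07, 0.000243) followed. Thy1 was the exception (0.20, SE 0.37, adjusted p = 0.692). In the day 8 Ucp1 fit, 11 of 18 interferon-stimulated genes had called negative slopes and 0 positive ones. That fit called 16.8% of all tested genes negative. Whether the marker slopes against Ucp1 and against Ifit3 are separate relations was not tested.

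For Ly6a and Ifit3, r was 0.851 (permutation p = 3e-05) and rho 0.917. B6, D4 and D6 held 4.14, 26.9 and 44.5 CPM of Ly6a, and A3 held 757 CPM. Pdgfra gave r = 0.827 (permutation p = 1e-05) and Cd44 0.812 (permutation p = 2e-05). D4, B6 and D6 were also the lines with the least Pdgfrb at day 8, at 40.3, 59.4 and 58.5 CPM. The 7 calls held without C6 and D5, without B6, with the line letter and with Adipoq as a second covariate, and Eng alone was lost in limma-voom (adjusted p = 0.0637). Within the 15 Eng-low lines Eng and Ifit3 had r = 0.672 (permutation p = 0.00578). Of the other progenitor surface genes, 22 of 29 tested were called with a positive slope, and Adipoq itself had a slope of -0.11 (SE 0.11, adjusted p = 0.441).

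**Figure D5:**
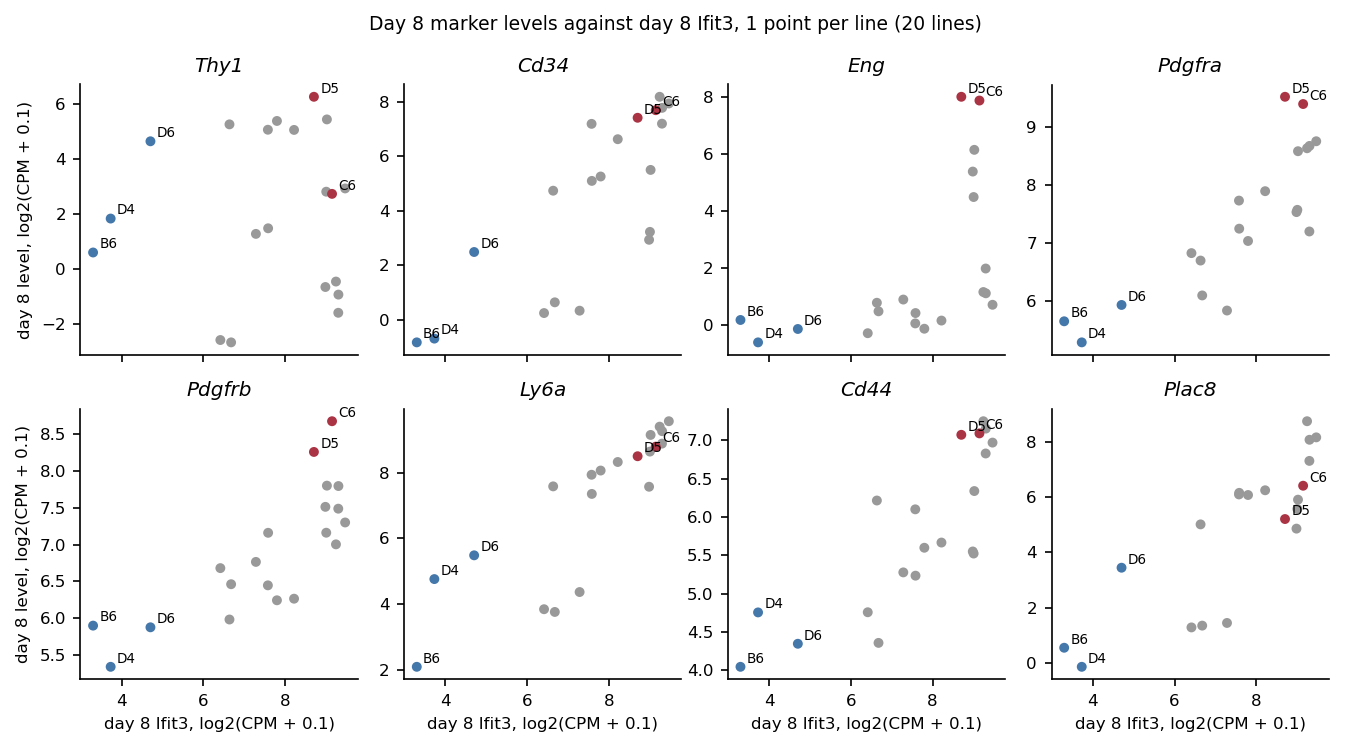
Day 8 level of each marker against day 8 Ifit3 of the same library, as log2(CPM + 0.1), 1 point per line; C6 and D5 in red, B6, D4 and D6, with the least Ifit3, in blue. All markers but Thy1 had a called positive slope, and the 5 Eng-high lines all lie at the right of the Eng panel.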

How the data were processed

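Poly(A)-selected RNA was sequenced as strand-marked 100 bp read pairs, per the labels' protocols. The authors deposited 1 table of whole-number counts per gene symbol for each of the 40 libraries, made with STAR and HTSeq on mouse build mm9, per the submitters' processing notes. No source used here gives the versions, the annotation or the strand setting. The tallies for reads not on a gene, 30.1% ± 0.614 (SD, n = 20) of undifferentiated and 21.2% ± 1.11 of day 8 reads, stayed out of library sizes. Those for low-quality and unaligned reads are 0 in all day 8 files. Of 29912 shared symbols, 125 that differ only in letter case were left out.

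The tests ran in edgeR 4.0.16 under R 4.3.3 (filterByExpr by stage with minimum count 10, TMM, glmQLFit and glmQLFTest, Benjamini-Hochberg, threshold 0.05). Ucp1 did not pass the filter and served as a covariate only. Log2 CPM used a prior count of 2. Stage was fitted alone over 40 libraries, so the main stage tests leave out the pairing by line. Line was tested beside stage over the same 40 libraries. Continuous covariates were fitted over the 20 libraries of a stage, as centred log2 CPM, and a slope is the log2 difference per log2 unit of the covariate. Rank slopes were compared for direction and call only. Correlations were tested by two-sided permutation. Alternatives were DESeq2 1.42.0, limma-voom (limma 3.58.1), other scaling, no filter, lines left out, the line letter and the line as a block.

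The markers and lists were chosen with earlier results of these data known. The genes named beside the markers are, per list, the 3 steepest called rises and falls above a mean of 5 CPM in the stage with more, per fit the 3 called genes of each sign with the smallest p, and per marker the 3 most alike genes. Only some of these are printed, and some are not reported here. The line, which the labels give for both libraries, pairs them: own-line profiles centred by stage correlated at 0.0719 to 0.545, and 14 of 20 were the best match. In simulated counts for 14081 genes, 100.0% of 100 genes with a log2 stage difference of 1 were recovered, and 89.0% of 100 genes with a covariate slope of 0.5. Recovery at the spread of the markers between lines was not tested, so these shares are not those of the marker tests. Slopes of the undifferentiated markers against day 8 Adipoq had SEs from 0.06 (Cd44) to 0.91 (Plac8).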

Additional observations from a re-analysis of the deposited data

How the results depend on the processing

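Of 619 alternatives for single genes, 586 kept their side of the threshold, where a change of sign between uncalled values was counted as kept. Of 70 counts of called genes, 56 stayed within a fixed fold range of the main count. Of 192 correlations, 174 changed in r by less than a fixed limit. With the line as a replicate block 12056 genes differed between stages, against 11562 without it. Besides Eng, which it adds, and the size for Plac8, it changed no other call of a marker. DESeq2 gave no adjusted p for Eng between stages. The line difference called 4041 genes, and 7007 by DESeq2. The undifferentiated level against Adipoq called 681 genes, 1165 by DESeq2, 1903 with the line letter, and 0 without C6 and D5 and with ranks of the covariate, where 616 and 1561 had an unadjusted p under 0.05. Against Ucp1 it called 664 genes, 1210 by DESeq2, 349 with Adipoq as a second covariate, 316 without B6 and B3 and 0 with the line letter (1497 at an unadjusted p under 0.05). The day 8 level against Adipoq called 4691 genes, 2979 with the line letter and 18 without C6 and D5, where the Eng slope reversed to 0.73. Against Ucp1 it called 4491, 622 without C6 and D5, 180 with the line letter and 1287 with Adipoq as a second covariate. The cause of these shifts was not tested, and C6 and D5 are the lines at the low end of Adipoq. The lowest libraries of Thy1, Plac8 and Ucp1 hold 3 counts or fewer of these genes.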

Other observations

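Genes around the markers also followed the day 8 covariates. The endothelial and pericyte adhesion gene Mcam and Cav1, which encodes the caveola protein of adipocyte membranes, were higher where Adipoq was higher at day 8, with slopes of 0.72 (SE 0.08, adjusted p = 5.63e-06, edgeR) and 0.45 (SE 0.06, 3.11e-05). Itgav, tissue factor (F3) and Itgb5 were lower there, with slopes of -0.25, -0.58 and -0.29. Cebpb and Cd59a were higher where Ucp1 was higher, with slopes of 0.18 (SE 0.04, adjusted p = 0.00480) and 0.64 (SE 0.14, 0.00462), and Anxa3, Stat3 and Tnfaip6 were lower. Without C6 and D5 the Adipoq fit called 18 genes rather than 4691, and the Ucp1 fit called 622 rather than 4491, or 180 with the line letter.

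Along day 8 Ifit3, Bst2 and Ly6e, both known interferon targets, had slopes of 0.48 and 0.55 (adjusted p = 4.68e-09 and 8.01e-08, edgeR), and Cebpb, Myc and Id1 had slopes of -0.20, -0.11 and -0.15. Over the 18 interferon-stimulated genes, which include the covariate Ifit3 itself, the median slope was 0.90. It was 0.76 over the 8 markers and -0.00165 over all tested genes.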
